A study of Mus musculus with 6 samples.

Results

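Synaptic and neurite adhesion molecules were examined in mouse brain tumors. The tumors arose after in utero electroporation, a method that uses electric pulses to bring injected plasmids into cells of the embryonic brain. The 50 genes, of 24537 rows in the count table, comprise the sidekicks, the IgLON family, neurexins and neuroligins, contactins and the contactin-associated Caspr proteins, leucine-rich repeat (LRR) proteins of synapses, and the Dscam, Ncam, L1, Cadm and LAR phosphatase families. They were selected on family membership with results of the comparison below already known, so their values are a description of it and no test of it. Each gene was found in the table, and 45 passed the filter on low counts.

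One group was electroporated with PdgfraD482V, a mutant platelet-derived growth factor receptor, with DNp53, a dominant-negative p53, and with FOXR2, a forkhead transcription factor. The other carried the same PdgfraD482V and DNp53 and was titled Control. Each group had 3 libraries from tumors of CD-1 IGS mice, and the series compares tumors with and without FOXR2. The labels give no age, no promoter of the constructs and no statement that each of the 3 tumors in a group was a separate animal's, so p-values measure only the spread between these samples. By Xist and Y-linked genes each group held both sexes, and so at least 2 animals. A sample sheet deposited with the counts assigns the other group to 6 of 6 libraries. The titles were followed and each library is named by its title, and each direction below turns round if the sheet is the correct source. The mouse Foxr2 gene had few counts in both groups, with 22, 1 and 7 counts in FOXR2 replicates 1, 2 and 3, against 4, 10 and 7 counts in Control replicates 1, 2 and 3. Whether the construct carried the mouse gene is not stated, so this settles neither source. Pdgfra averaged 3120 ± 565 CPM in the libraries titled FOXR2, against 2190 ± 274 CPM in those titled Control, with an edgeR adjusted p of 0.187. Trp53 averaged 304 ± 131 CPM in FOXR2 libraries, against 442 ± 104 CPM in Control libraries, with an edgeR adjusted p of 0.378 (errors are SD, n = 3 each).

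The libraries held 13429489 to 17927025 counts, and a level of 3 counts, used here as the floor, equalled 0.174 to 0.219 counts per 1000000 counts (CPM). The tissue label was tumor cells of the brain, and markers of oligodendrocyte precursors were abundant in every library. The sum of 10 of them was 7147, 5845 and 6923 CPM in FOXR2 replicates 1, 2 and 3. In Control replicates 1, 2 and 3 it was 5264, 3841 and 5581 CPM, so the groups did not overlap. Of these 10, 7 were fitted above 0, 3 below and 0 called, where 50.7% of all tested genes were above 0. Singly, only Ptprz1 had FOXR2 above without overlap, against 13.1% of all tested genes. FOXR2 replicate 2 stood apart, since 14 markers of microglia and macrophages summed to 1433 CPM there and to 42.5 to 65.8 CPM in the other libraries. Markers of mature oligodendrocytes differed within both groups, with 12 of them summing to 265, 5536 and 1517 CPM in FOXR2 replicates 1, 2 and 3, against 1940, 371 and 4432 CPM in Control replicates 1, 2 and 3. The sum of 13 immature neuron markers also did not overlap between groups. It was 1221, 1253 and 1334 CPM in FOXR2 replicates 1, 2 and 3, against 504, 499 and 809 CPM in Control replicates 1, 2 and 3. All 9 markers that passed the filter were fitted above 0, with 0 called. Taken singly, 5 of the 9 had FOXR2 above without overlap, against 13.1% of all tested genes, and the others overlapped. Elavl3 had 113, 211 and 89.8 CPM in the libraries titled FOXR2, against 52.7, 43.6 and 173 CPM in those titled Control. Dcx, a microtubule protein of migrating neurons, had 196, 157 and 209 CPM in the libraries titled FOXR2, against 20.9, 16.0 and 74.5 CPM in those titled Control, while Neurod2 was at 0 counts in 5 of 6 libraries. The 16 mature neuron markers summed to 362, 237 and 166 CPM in the libraries titled FOXR2, against 189, 198 and 286 CPM in those titled Control. Of 13 tested markers, 7 were fitted above 0, 6 below and 2 called higher, where 50.7% of all tested genes were above 0 and 0.908% called higher. The called markers were Syt1, a calcium sensor of synaptic vesicles, and Syn1, a synaptic vesicle protein. Syt1 had 153, 61.3 and 31.6 CPM in FOXR2 replicates 1, 2 and 3, against 7.44, 4.35 and 2.73 CPM in Control replicates 1, 2 and 3 (log2 fold change 4.08 ± 0.67, edgeR adjusted p = 0.0436), and the log2 fold change of Syn1 was 1.32 ± 0.25 (adjusted p = 0.0489). Nefm, a neurofilament subunit, had the lowest fitted value, -1.73 ± 0.51, and was not called (adjusted p = 0.102), and Slc17a6, a vesicular glutamate transporter, was at 0 counts in 5 of 6 libraries. In bulk RNA, fewer cells of a type and less RNA per cell cannot be told apart, and the part of these cell types in the values below was not tested.

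Adhesion molecules of this kind hold axons, dendrites and glia together and organize synapses. Neurexins on the presynaptic side bind neuroligins and LRR proteins such as the Lrrtm family on the postsynaptic side, and receptor phosphatases of the LAR family bind Slitrk, Lrfn and Il1rapl proteins. Sidekicks, Dscam and Ncam proteins bind copies of themselves on other cells, IgLON proteins and contactins are attached to the membrane by a lipid anchor, and the L1 family connects to the cytoskeleton through ankyrins. Several also act between axons and myelinating glia, where Cntn1 and Cntnap1 on the axon meet a glial form of Nfasc.

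Promoters are shown for Sdk1 and Negr1, the 2 genes that passed the test below, and for a relative of each that did not, Sdk2 and Lsamp. They were taken from the RefSeq table of GRCm38.p6, which holds 55 promoters of 38 of the 50 genes, each running from 250 bases before to 50 bases after a gene start. Capitals mark matches, on either strand, to an ETS core (CCGGAA), a forkhead core (TAAACA) or a GC box (GGGCGG). The 4 lie at chr5:141241284-141241583 on the plus strand for Sdk1, chr11:114066980-114067279 on the minus strand for Sdk2, chr3:156561544-156561843 on the plus strand for Negr1 and chr16:39984114-39984413 on the plus strand for Lsamp, the first of 2 starts.
Sdk1: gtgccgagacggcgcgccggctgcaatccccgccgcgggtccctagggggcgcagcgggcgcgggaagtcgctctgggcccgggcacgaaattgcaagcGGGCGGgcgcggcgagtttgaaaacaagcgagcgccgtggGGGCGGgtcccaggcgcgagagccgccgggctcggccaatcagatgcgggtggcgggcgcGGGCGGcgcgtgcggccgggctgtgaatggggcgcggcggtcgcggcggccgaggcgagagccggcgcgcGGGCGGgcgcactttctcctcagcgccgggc
Sdk2: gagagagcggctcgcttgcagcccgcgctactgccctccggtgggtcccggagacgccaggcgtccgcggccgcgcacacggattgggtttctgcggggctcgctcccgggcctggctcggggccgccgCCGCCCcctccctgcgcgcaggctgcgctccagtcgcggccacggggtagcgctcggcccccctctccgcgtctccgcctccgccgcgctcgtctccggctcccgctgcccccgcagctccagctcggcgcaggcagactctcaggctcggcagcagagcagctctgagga
Negr1: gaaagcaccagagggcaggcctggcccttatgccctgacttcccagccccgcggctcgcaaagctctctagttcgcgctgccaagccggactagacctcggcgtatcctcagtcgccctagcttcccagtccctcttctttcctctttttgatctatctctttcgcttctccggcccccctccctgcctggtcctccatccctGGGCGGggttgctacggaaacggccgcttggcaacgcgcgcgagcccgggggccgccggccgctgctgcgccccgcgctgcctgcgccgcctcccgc
Lsamp: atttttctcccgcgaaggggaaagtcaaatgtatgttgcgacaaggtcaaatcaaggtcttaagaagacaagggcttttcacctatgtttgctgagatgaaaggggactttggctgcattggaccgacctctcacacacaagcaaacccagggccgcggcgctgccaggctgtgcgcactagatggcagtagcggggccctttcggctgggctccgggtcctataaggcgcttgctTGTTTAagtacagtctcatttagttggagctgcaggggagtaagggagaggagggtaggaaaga

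The Sdk1 promoter held 4 GC boxes, those of Sdk2 and Negr1 held 1 each, and that of Lsamp held none and 1 forkhead core. Neither the ETS core nor the forkhead core was found in the Sdk1, Sdk2 or Negr1 windows, which says only that these letters are not in these windows. Over all 55 promoters, 5.45% held the ETS core, against 14.9% of the 32851 promoters in the table. The forkhead core was in 9.09% of them, against 13.4% of all promoters, and the GC box in 38.2%, against 35.7%. The GC content of the Sdk1 window was 78.3%, where the median was 55.7% over the 55 promoters and 52.7% over all promoters. The ETS core occurred in promoters of Dscam, Flrt2 and Ntm, and the forkhead core in those of Cntn3, Lsamp, Nfasc, Nlgn1 and Ntm, so Ntm held both.

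Across the 50 genes together, the sum was 5839, 4483 and 6225 CPM in FOXR2 replicates 1, 2 and 3, against 2893, 2412 and 4077 CPM in Control replicates 1, 2 and 3. The groups did not overlap in this sum, and FOXR2 replicate 2 and Control replicate 3 were nearest to each other. Of the 45 tested genes, 34 had a fitted log2 fold change above 0 and 11 below 0, with a median of 0.70, where the median of all 13101 tested genes was 0.01 and 50.7% of them were above 0. The edgeR quasi-likelihood test with Benjamini-Hochberg adjustment over all tested genes called 2 of the 45 higher, Sdk1 and Negr1, and 0 lower. Among all tested genes it called 0.908% higher and 1.38% lower. At an unadjusted p under 0.05 the same test gave 17 of the 45 higher and 0 lower, against 11.9% higher and 13% lower of all tested genes. DESeq2 called 12 higher and 0 lower of the 43 for which it gave an adjusted p, against 7.30% higher and 7.34% lower of all genes it tested. The libraries of the groups did not overlap in 18 of the 45 with the libraries titled FOXR2 above, and in 0 with them below, where the shares over all tested genes were 13.1% and 17.2%. Sdk1, Cntn6 and Il1rapl1 had under 10 counts in each library titled Control, so only the libraries titled FOXR2 brought them past the filter. Their fits above 0 and their lack of overlap followed from that filter, and they are among the 34 and the 18. Sdk1 is also among the 2 called. The list was chosen with this comparison known, so nothing is read from these counts.

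**Figure D1:**
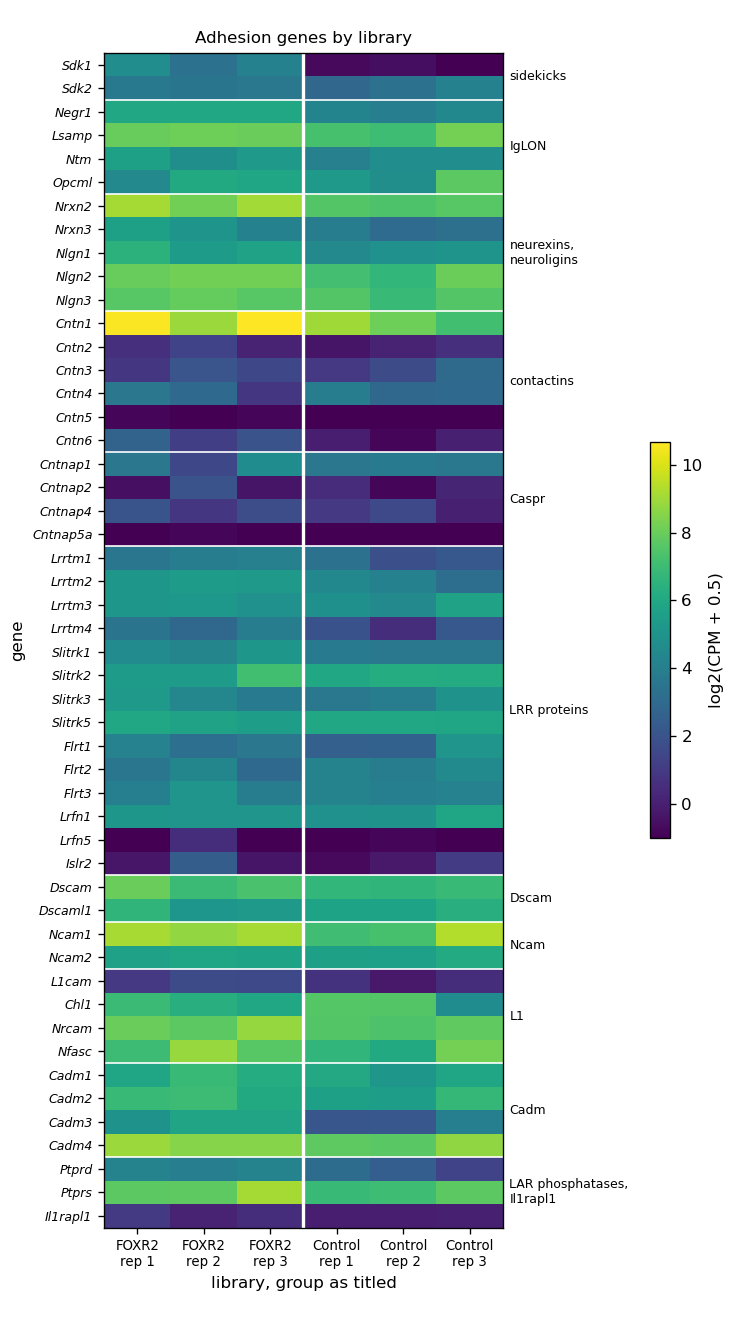
Heat map of log2(CPM + 0.5) for the 50 adhesion genes (rows, ordered by family) in the 3 libraries titled FOXR2 (left) and the 3 titled Control (right). Sdk1 is near the bottom of the scale in each library titled Control, and Ncam1, Opcml and Flrt1 are higher in Control replicate 3 than in Control replicates 1 and 2.

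By library, the highest of the 6 values fell in FOXR2 replicates 1, 2 and 3 for 12, 9 and 11 of the 45 genes, and in Control replicates 1, 2 and 3 for 2, 1 and 10. Control replicate 3 therefore held the highest value of 22.2% of the genes, close to the 18.4% of all tested genes that had theirs in it. Control replicate 2 held the lowest value of 20 of the 45, or 44.4%, against 16.2% of all tested genes. These adhesion transcripts were long, with a median transcript length of 5772.5 bases, against 3247 bases over all tested genes. When the fit included an offset that removes trends with transcript length and GC content, the median log2 fold change of the 45 was 0.45.

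The sidekicks diverged within their family. Sdk1, a homophilic molecule that matches synaptic partners in the retina, had 25.7, 9.55 and 17.0 CPM in FOXR2 replicates 1, 2 and 3, against 0.120, 0.179 and 0 CPM in Control replicates 1, 2 and 3. Every library titled FOXR2 was high, and those titled Control were at or below the floor, with 5 counts in all 3 together against 778. The fitted log2 fold change was 7.35 ± 0.80 (SE; edgeR adjusted p = 0.0283). Because it rests on so few counts, the ratio of pooled CPM of 176 has a 95% interval from counting error alone of 75.0 to 543. As Sdk1 passed the filter only through the libraries titled FOXR2, its direction and lack of overlap followed from the filter. Its adjusted p is therefore given as a description only. Sdk2, its close relative, had 12.8, 10.9 and 12.4 CPM in the libraries titled FOXR2, against 6.78, 10.1 and 17.0 CPM in those titled Control, so that the groups overlapped (log2 fold change 0.09 ± 0.37).

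Within a library, the share of sidekick reads that were Sdk1 does not depend on scaling between libraries. It was 66.8%, 46.7% and 57.8% in FOXR2 replicates 1, 2 and 3, with 95% Wilson intervals of 62.9 to 70.5%, 41.4 to 52.2% and 52.9 to 62.5%. In Control replicates 1 and 2 it was 1.74% and 1.73%, with intervals of 0.478 to 6.12% and 0.591 to 4.97%. In Control replicate 3 it was 0 of 293 reads, which allows a share of up to 1.02% by the floor of 3 counts and 1.29% by the Wilson interval. Transcript lengths were alike, at 10352 bases for Sdk1 and 11287 bases for Sdk2, and per kilobase of transcript Sdk1 made up 48.9 to 68.7% of sidekick expression in the libraries titled FOXR2, against 0 to 1.89% in those titled Control. Intervals and limits cover counting error only.

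Negr1, an IgLON protein that regulates neurite growth, was nearly level within the libraries titled FOXR2. It had 63.0, 60.9 and 63.6 CPM in FOXR2 replicates 1, 2 and 3, against 18.9, 15.6 and 21.1 CPM in Control replicates 1, 2 and 3. No libraries overlapped, and the log2 fold change was 1.75 ± 0.18, a fold of 3.37 (edgeR adjusted p = 0.0282). Its relatives were less separated. Lsamp had the highest level per kilobase of the 4 IgLON genes among the 50, at 25.5 CPM per kb. Iglon5, an IgLON gene outside the 50, was higher, at 34.2 CPM per kb. Lsamp had 245, 269 and 253 CPM in the libraries titled FOXR2, against 152, 131 and 294 CPM in those titled Control. For Lsamp, Control replicate 3 was above all others (log2 fold change 0.41 ± 0.31). Ntm ranged from 27.6 to 48.9 CPM in the libraries titled FOXR2, against 16.2 to 26 CPM in those titled Control, without overlap. Opcml overlapped between groups, with 22.2, 66.6 and 57.5 CPM in FOXR2 replicates 1, 2 and 3, against 39.5, 26.6 and 214 CPM in Control replicates 1, 2 and 3. Per kilobase, Negr1 made up 19.8 to 21.1% of the expression of the 4 IgLON genes among the 50 in the libraries titled FOXR2. In those titled Control it made up 5.42 to 11.7%. Iglon5 is not part of these shares.

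The calls of Sdk1 and Negr1 were lost in several fits with fewer libraries, while their fitted differences stayed about as large. Leaving out each library in turn gave log2 fold changes of 6.80 to 8.03 for Sdk1 and 1.66 to 1.86 for Negr1. Sdk1 lost its call without FOXR2 replicate 1, FOXR2 replicate 3, Control replicate 1 or Control replicate 2 (edgeR adjusted p = 0.0508, 0.111, 0.110 and 0.132). Negr1 lost it without the same libraries (adjusted p = 0.0508, 0.111, 0.110 and 0.132) and without Control replicate 3 (adjusted p = 0.0506). Calls among all genes also fell in these fits, to between 1 and 18 higher and 0 to 2 lower. With animal sex, read from Xist and Y-linked genes, as a covariate, the log2 fold change was 6.98 for Sdk1 and 1.74 for Negr1 (edgeR adjusted p = 0.0761 and 0.0905), with 7 genes called higher and 0 lower in all. FOXR2 replicates 1 and 3 and Control replicate 1 were male and the other libraries female. As differences of log2(CPM + 0.5) of group means, Sdk1 was 5.14 among males and 4.09 among females, and Negr1 was 1.72 among males and 1.70 among females. Of the 45 tested genes, 40 were above 0 among males and 31 among females, with 28 above 0 in both. Each sex had 2 libraries of one group and 1 of the other, and the shares over all tested genes were not computed. The counts include Sdk1, Cntn6 and Il1rapl1, which passed the filter only through the libraries titled FOXR2, so nothing is read from them.

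**Figure D2:**
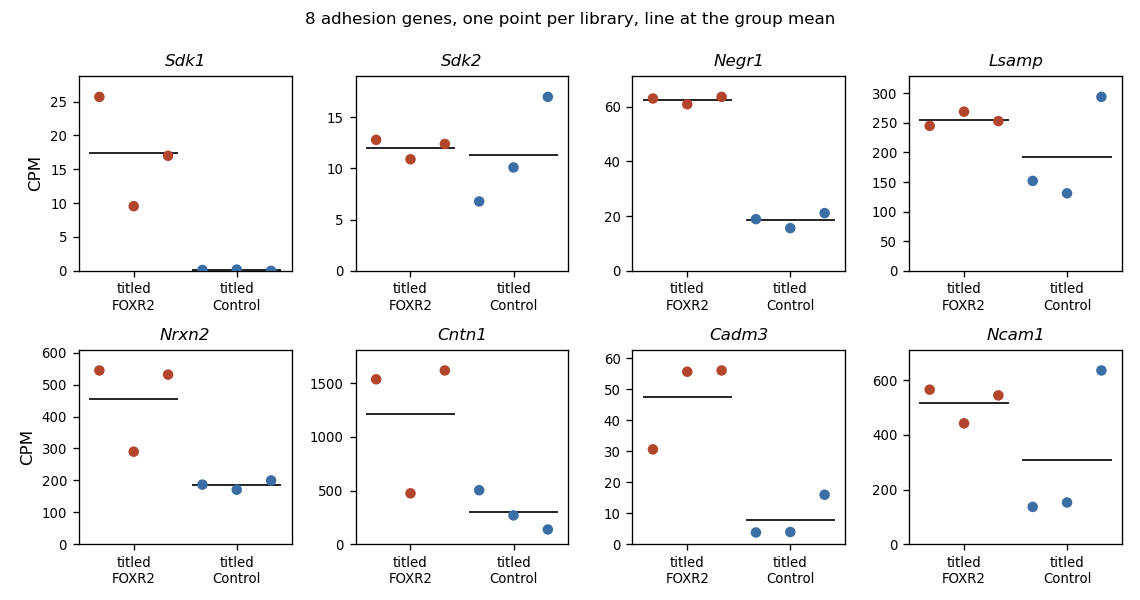
CPM of 8 adhesion genes, one point per library and a line at each group mean, with libraries titled FOXR2 left of those titled Control and each axis starting at 0. Sdk1, Negr1, Nrxn2 and Cadm3 do not overlap between groups, and Sdk2, Lsamp, Cntn1 and Ncam1 do.

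None of the other 43 tested genes passed the adjusted threshold, with edgeR adjusted p from 0.0555 for Nrxn2 to 0.993 for Lrrtm3. Nrxn2, a presynaptic neurexin, had 544, 290 and 531 CPM in FOXR2 replicates 1, 2 and 3, against 187, 171 and 200 CPM in Control replicates 1, 2 and 3. The groups did not overlap, and FOXR2 replicate 2 was nearest to the libraries titled Control. The log2 fold change was 1.29 ± 0.27, and without FOXR2 replicate 2 it was 1.53 and called (edgeR adjusted p = 0.0359). Nrxn3, another neurexin, had 48.9, 32.7 and 17.0 CPM in the libraries titled FOXR2, against 14.5, 7.99 and 9.47 CPM in those titled Control (log2 fold change 1.63 ± 0.43). The groups lay close, with 17.0 CPM in FOXR2 replicate 3 and 14.5 CPM in Control replicate 1.

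The neuroligins, which bind neurexins across the synapse, were fitted above 0 in all 3 cases. Nlgn1, found mainly at excitatory synapses, had 89.2, 41.4 and 52.2 CPM in the libraries titled FOXR2, against 22.1, 29.8 and 32.3 CPM in those titled Control. The groups did not overlap in Nlgn1. Nlgn2, of inhibitory synapses, had 247 to 292 CPM in the libraries titled FOXR2, against 106 to 260 CPM in those titled Control, where Control replicate 3 was within the range of the other group. Nlgn3, found at both kinds of synapse, had 195 to 242 CPM in the libraries titled FOXR2, against 121 to 187 CPM in those titled Control, a fitted log2 fold change of 0.36 ± 0.22.

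Contactins were dominated by Cntn1. Cntn1, a ligand of Ptprz1 and a partner of Caspr at the axon-glia junction, had 1536, 475 and 1618 CPM in FOXR2 replicates 1, 2 and 3, against 504, 270 and 139 CPM in Control replicates 1, 2 and 3. FOXR2 replicates 1 and 3 were high, while FOXR2 replicate 2 was below Control replicate 1, so the groups overlapped (log2 fold change 1.99 ± 0.59, edgeR adjusted p = 0.106). Per kilobase it made up 96.7 to 99.4% of contactin expression in the libraries titled FOXR2, against 88.6 to 96.6% in those titled Control. Cntn6, a low contactin, had 92, 27 and 47 counts in FOXR2 replicates 1, 2 and 3, against 8, 1 and 9 counts in those titled Control. This is 6, 1.71 and 3.43 CPM, against 0.480, 0.0596 and 0.523 CPM, with no overlap and a log2 fold change of 3.36 ± 0.81. As Cntn6 passed the filter only through the libraries titled FOXR2, its lack of overlap followed from the filter. Cntn3 and Cntn4 were fitted below 0 with overlapping groups, at -0.70 ± 0.70 and -0.47 ± 0.71, and Cntn2, which joins axon and glia beside the node of Ranvier, ranged from 0.584 to 2.02 CPM in the libraries titled FOXR2, against 0.300 to 1.05 CPM in those titled Control.

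The Caspr proteins, the axonal partners of contactins, showed little that set the groups apart. Cntnap1, of the paranodal junction, had 11.7, 2.40 and 24.6 CPM in FOXR2 replicates 1, 2 and 3, against 12, 13.8 and 12.4 CPM in Control replicates 1, 2 and 3. The libraries titled FOXR2 lay on both sides of the others, and the log2 fold change of 0.02 ± 0.68 changed sign under other settings. Cntnap4 had 3.59, 1.27 and 2.92 CPM in the libraries titled FOXR2, against 1.44, 2.44 and 0.523 CPM in those titled Control (log2 fold change 0.82 ± 0.67).

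**Figure D3:**
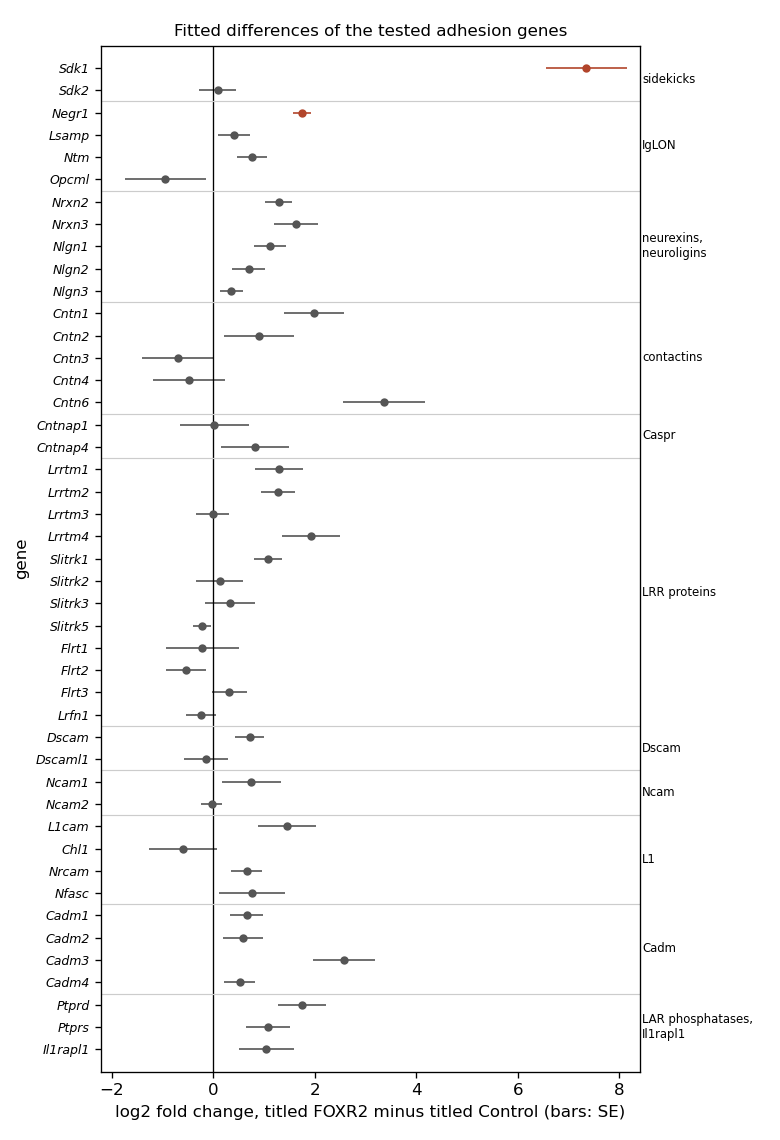
Fitted log2 fold change, titled FOXR2 minus titled Control, of the 45 tested adhesion genes by family, with bars of 1 SE. Sdk1 and Negr1, the called genes, are in red, and 34 of the 45 points lie right of 0.

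Among the 14 LRR proteins 12 were tested, of which 7 were fitted above 0 and 5 below, with a median of 0.22. Lrrtm4, a postsynaptic protein that binds heparan sulfate proteoglycans, had 10.7, 6.96 and 14.4 CPM in FOXR2 replicates 1, 2 and 3, against 3.30, 0.954 and 4.12 CPM in Control replicates 1, 2 and 3, with no overlap (log2 fold change 1.93 ± 0.57). Lrrtm1 and Lrrtm2, which bind neurexins, and Slitrk1, which binds receptor phosphatases, also had groups that did not overlap, with log2 fold changes of 1.30 ± 0.47, 1.28 ± 0.33 and 1.08 ± 0.27. Lrrtm3, of the same family, did not follow them, at 35.7, 36.6 and 29.4 CPM in the libraries titled FOXR2, against 28.7, 21.9 and 51.6 CPM in those titled Control. Lrfn1, a synaptic LRR protein with the highest level per kilobase of the 14, had 35, 33.3 and 33.1 CPM in the libraries titled FOXR2, against 29.8, 30.7 and 59.3 CPM in those titled Control. Its log2 fold change was -0.24 ± 0.29, and without Control replicate 3 it was 0.16. Slitrk2, Slitrk3, Slitrk5, Flrt1, Flrt2 and Flrt3 had overlapping groups and fitted values from -0.53 to 0.33.

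Adhesion molecules that bind copies of themselves gave mixed values. Dscam, which mediates self-avoidance of neurites, had 252, 124 and 157 CPM in FOXR2 replicates 1, 2 and 3, against 105, 98.6 and 120 CPM in Control replicates 1, 2 and 3 (log2 fold change 0.72 ± 0.28). FOXR2 replicate 2 and Control replicate 3 were nearest to each other, without overlap. Its relative Dscaml1 overlapped, at -0.14 ± 0.43. Ncam1, the neural cell adhesion molecule, had 565, 442 and 544 CPM in FOXR2 replicates 1, 2 and 3, against 137, 153 and 635 CPM in Control replicates 1, 2 and 3. Control replicate 3 was the highest of all 6 libraries and the other libraries titled Control the lowest, so the log2 fold change was 0.75 ± 0.58 with all libraries and 1.84 without Control replicate 3 (edgeR adjusted p = 0.0561). Ncam2 was nearly level, at 50.4, 58.1 and 54.3 CPM in the libraries titled FOXR2, against 48.6, 48.0 and 69.9 CPM in those titled Control.

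In the L1 family, which anchors to ankyrin, L1cam was the lowest and Nrcam the highest per kilobase, at 0.297 and 39.9 CPM per kb over all libraries. L1cam had 22, 44 and 34 counts in FOXR2 replicates 1, 2 and 3, against 19, 6 and 16 counts in those titled Control, or 1.44, 2.78 and 2.48 CPM against 1.14, 0.358 and 0.929 CPM (log2 fold change 1.46 ± 0.57). The groups did not overlap, but the counts are few. Nrcam had 256, 211 and 452 CPM in the libraries titled FOXR2, against 186, 167 and 228 CPM in those titled Control, where Control replicate 3 exceeded FOXR2 replicate 2 (log2 fold change 0.66 ± 0.31). Chl1 had 122, 80.3 and 60.6 CPM in FOXR2 replicates 1, 2 and 3, against 189, 184 and 25.0 CPM in Control replicates 1, 2 and 3, with the lowest and the highest of the 6 values both in libraries titled Control. Nfasc, the axon-glia junction protein, had 126, 459 and 200 CPM in FOXR2 replicates 1, 2 and 3, against 102, 68.1 and 294 CPM in Control replicates 1, 2 and 3, with overlapping groups.

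Nfasc was highest in FOXR2 replicate 2 and then in Control replicate 3, the libraries with the highest sums of mature oligodendrocyte markers (5536 and 4432 CPM). Nfasc and Opcml were singled out after their values were seen. Mbp, the major myelin protein gene of that list, stood at 2290 and 929 CPM in these libraries, while Mog, of mature myelin, stood at 25.2 and 0.232 CPM. Mag (341 and 363 CPM), Cnp (1201 and 1408 CPM), Cldn11 (355 and 495 CPM) and Myrf (237 and 476 CPM) were higher in Control replicate 3. The remaining markers of the list were higher in FOXR2 replicate 2. Opcml followed the order only in part, being highest in Control replicate 3 at 214 CPM and at 66.6 CPM in FOXR2 replicate 2. Cntn1 was low in both, at 475 and 139 CPM, but also low in Control replicate 2, at 270 CPM, where the markers summed to 371 CPM. The part of oligodendrocyte content in these values was not tested.

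**Figure D4:**
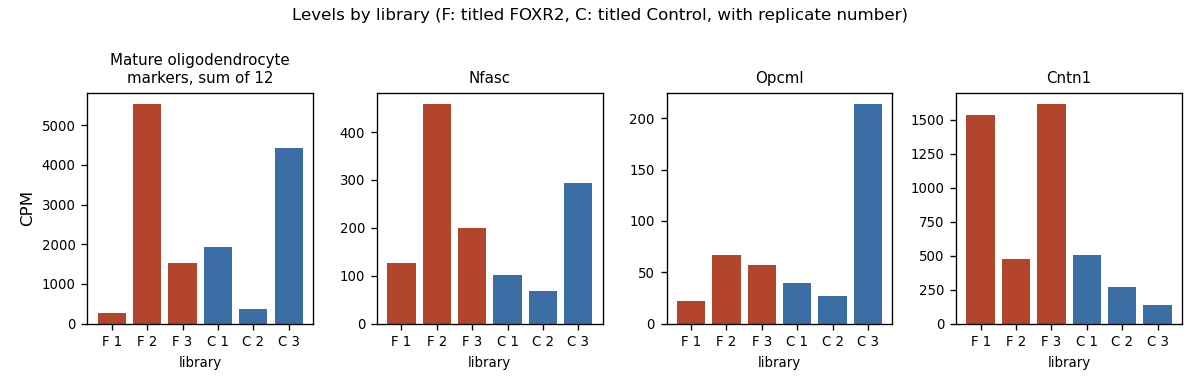
CPM by library of the summed markers of mature oligodendrocytes and of Nfasc, Opcml and Cntn1, with libraries titled FOXR2 (F) left of those titled Control (C) and each axis starting at 0. The marker sum and Nfasc are highest in FOXR2 replicate 2 and Control replicate 3.

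The Cadm proteins, which join synaptic and axon-glia membranes, were all fitted above 0. Cadm3 had 30.6, 55.6 and 56.0 CPM in FOXR2 replicates 1, 2 and 3, against 3.84, 3.99 and 16.0 CPM in Control replicates 1, 2 and 3. The groups did not overlap and Control replicate 3 was the highest of its group, so that the log2 fold change was 2.57 ± 0.61 with all libraries (edgeR adjusted p = 0.0688) and 3.60 without Control replicate 3, where it was called (adjusted p = 0.0479). Cadm4, a glial member that meets axons and the most abundant of the 50 genes per kilobase at 159 CPM per kb, had 475, 368 and 370 CPM in the libraries titled FOXR2, against 217, 202 and 425 CPM in those titled Control (log2 fold change 0.52 ± 0.31). Cadm1 and Cadm2 had overlapping groups and log2 fold changes of 0.66 ± 0.33 and 0.59 ± 0.39. Per kilobase, Cadm3 was 2.37 to 5.29% of the family in the libraries titled FOXR2, against 0.617 to 1.39% in those titled Control.

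Ptprd and Ptprs, receptor phosphatases and presynaptic partners of several LRR proteins, did not overlap between groups. Neither was called (edgeR adjusted p = 0.0912 and 0.178). A further receptor phosphatase, Ptprf, is counted below among other surface adhesion genes. It had 187, 115 and 280 CPM in the libraries titled FOXR2, against 145, 181 and 191 CPM in those titled Control. Its groups overlapped (log2 fold change 0.17 ± 0.32). Ptprd had 18, 15.6 and 18.2 CPM in FOXR2 replicates 1, 2 and 3, against 8.21, 5.13 and 2.03 CPM in Control replicates 1, 2 and 3 (log2 fold change 1.75 ± 0.48). Ptprs had 212, 215 and 551 CPM in the libraries titled FOXR2, against 121, 130 and 210 CPM in those titled Control (1.08 ± 0.43). For Ptprs the separation between FOXR2 replicate 1 and Control replicate 3 was narrow, and FOXR2 replicate 3 stood alone at the top. Without that library its log2 fold change was 0.47. Il1rapl1, which binds Ptprd across the synapse, had 23, 10 and 13 counts in FOXR2 replicates 1, 2 and 3, against 8, 8 and 9 counts in those titled Control.

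The 5 genes that failed the filter were Cntn5, Cntnap2, Cntnap5a, Lrfn5 and Islr2. Cntn5 and Cntnap5a had at most 1 count in any library. Cntnap2, the juxtaparanodal Caspr protein, had 3, 54 and 4 counts in FOXR2 replicates 1, 2 and 3, against 15, 1 and 11 counts in Control replicates 1, 2 and 3. Islr2, an LRR protein of axon growth, had 5, 78 and 4 counts in FOXR2 replicates 1, 2 and 3, against 2, 6 and 26 counts in those titled Control, and Lrfn5 had 0, 15 and 0 counts in FOXR2 replicates 1, 2 and 3, against 0, 1 and 0 counts in those titled Control. FOXR2 replicate 2 was the highest in 4 of these 5 genes, for Cntnap5a by 1 count. This library had the highest sums of both microglia and mature oligodendrocyte markers (1433 and 5536 CPM). The share over all untested genes was not computed, and the part of these cell types was not tested.

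Other genes of synaptic adhesion were taken from 3 lists. Beside the counts of each list below, 50.7% of all tested genes were fitted above 0, 0.908% were called higher and 1.38% lower. The lists were chosen with this comparison known, so nothing is read from their counts. Among 33 scaffolds and adaptors, which hold adhesion molecules at the membrane, 30 were tested, 28 were fitted above 0 with a median of 0.73, and 2 were called higher and 0 lower. Ank3, the ankyrin that anchors L1 proteins at the axon initial segment and nodes, had 156, 132 and 118 CPM in FOXR2 replicates 1, 2 and 3, against 31.3, 17.3 and 35.7 CPM in Control replicates 1, 2 and 3 (log2 fold change 2.27 ± 0.30, edgeR adjusted p = 0.0298). Dlg3, a postsynaptic scaffold, had 36.6, 45.8 and 38.8 CPM in the libraries titled FOXR2, against 18.8, 13.2 and 17.3 CPM in those titled Control (1.30 ± 0.22, adjusted p = 0.0437). Neither overlapped between groups. Ank3 kept its call without FOXR2 replicate 2 (edgeR adjusted p = 0.0462) and lost it without any of the other libraries (0.0560 to 0.132), and Dlg3 lost it without any single library (0.0676 to 0.159). The log2 fold changes in these fits were 2.03 to 2.48 for Ank3 and 1.18 to 1.41 for Dlg3. With sex as a covariate the adjusted p was 0.0976 for Ank3 and 0.122 for Dlg3, and with the length and GC offset 0.0457 for Ank3 and 0.0511 for Dlg3.

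Of 40 other surface adhesion genes, 35 were tested, 30 were fitted above 0 with a median of 0.40, and 1 was called higher and 0 lower. This was Mdga1, which binds neuroligins and blocks their contact with neurexins, at 18.8, 14.6 and 28.3 CPM in FOXR2 replicates 1, 2 and 3, against 6.84, 5.07 and 4.12 CPM in Control replicates 1, 2 and 3 (log2 fold change 1.94 ± 0.35, edgeR adjusted p = 0.0449). It too kept the call without FOXR2 replicate 2 (0.0474) and lost it without any other library (edgeR adjusted p = 0.0773 to 0.169), with log2 fold changes of 1.64 to 2.16. Its call was also lost with no filter on low counts (adjusted p = 0.0502), the length and GC offset (0.0532), limma-voom (0.0528) and sex as a covariate (0.120). Nptn, an immunoglobulin-type synaptic protein, averaged 138 ± 15.0 CPM in the libraries titled FOXR2, against 79.5 ± 10.1 CPM in those titled Control (SD, n = 3 each; edgeR adjusted p = 0.0649). Of 18 secreted ligands, 13 were tested, 6 were fitted above 0 with a median of -0.02, and 0 were called in either direction. At an unadjusted edgeR p under 0.05, 11.9% of all tested genes were higher. Nothing is therefore read from the 2 of 13 ligands that were higher at that level. These were Cbln1, which bridges neurexins to receptors in the cerebellum, at 18.1 ± 7.53 CPM in the libraries titled FOXR2, against 3.60 ± 1.37 CPM in those titled Control, and Nxph1, a ligand of neurexins, at 55.1 ± 31.4 CPM in the libraries titled FOXR2, against 12 ± 4.95 CPM in those titled Control (SD, n = 3 each; edgeR adjusted p = 0.0503 and 0.0600).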

How the data were processed

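Poly(A) RNA from 6 tumors was sequenced as single reads of 51 bases with a stranded kit, per the labels' protocols. The authors deposited 1 table of raw counts per gene. The submitters' processing notes name TopHat, DESeq2 and hg19, a human build, for these mouse samples, so no gene coordinates were taken from them, and the counting's annotation and strand setting were not stated in the sources used. Of 24537 rows, 23609 carried current RefSeq symbols, and 23 rows were gene names turned into spreadsheet dates.

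Groups came from the sample titles. The counts were tested with edgeR 4.0.16 in R 4.3.3, with TMM factors, filterByExpr with a count minimum of 10, quasi-likelihood F tests and Benjamini-Hochberg adjustment over 13101 genes at 0.05. CPM used TMM-adjusted library sizes, per-kilobase levels the transcript lengths of GENCODE, and standard errors came from the fitted F statistics. The adhesion genes and all lists were chosen with earlier results of these data known. Genes named are those called, in each family the largest fold change and the highest level per kilobase, and in the 3 lists of other synaptic adhesion genes those called and those with the 2 smallest adjusted p. Other adhesion genes and cell type markers named were chosen after their values were seen. Alternatives were RLE and total count scaling, other filters, a replicate block, sex, a length and GC offset (mgcv 1.9.3), DESeq2 1.42.0, limma-voom (limma 3.58.1) and leaving out each library. Animal sex was read from Xist and Y-linked genes. Depth was 13429489 to 17927025 counts per library.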

Additional observations from a re-analysis of the deposited data

How the results depend on the processing

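The calls of Sdk1 and Negr1 held under RLE and total count scaling, both other filters, the length and GC offset, DESeq2 and limma-voom. With a replicate block, 0 of the 45 tested adhesion genes were called, and 0 of all genes in either direction (2652 at an unadjusted p under 0.05), with adjusted p = 0.114 for both. Same-numbered libraries had correlations of deviations from their group means of -0.0161, -0.241 and -0.0104. With so few libraries per group, these values cannot tell whether replicate numbers pair the samples. With sex as a covariate 0 adhesion genes, 7 genes higher and 0 lower were called (2398 at an unadjusted p under 0.05). DESeq2 called 12 adhesion genes higher, and 916 genes higher and 921 lower. Total count scaling gave 119 genes lower, against 181. Leaving out 1 library gave 0 to 3 adhesion genes higher, 1 to 111 genes higher and 0 to 79 lower, and a median log2 fold change of the adhesion genes of 0.46 to 0.95. The length and GC offset gave a median of 0.45. Cntnap1 reversed to -0.44 with the block, -0.87 with sex, -0.19 with the offset, -0.57 with limma-voom, -0.85 without FOXR2 replicate 3 and -0.02 without Control replicate 1. Sdk2 reversed to -0.26 with the offset and -0.18 without Control replicate 1, and Lrfn1 to 0.16 without Control replicate 3. Leaving out 1 library gave -0.85 to 0.51 for Cntnap1, -0.18 to 0.51 for Sdk2 and -0.41 to 0.16 for Lrfn1. The cause was not tested. Of the other comparisons of named genes with their main values, 326 kept direction and side of the threshold, 39 lost a call and 14 gained one. Depth limits Sdk1 in the libraries titled Control, which held 5 counts in all.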
